A study of Drosophila melanogaster with 4 samples.

Results

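The Antennapedia complex is the Hox gene cluster of the fly head and anterior thorax, and its chromatin was examined here for H3K36me1 (histone H3 with 1 methyl group on lysine 36). The complex was taken as 3R from 2480000 to 2850000 on FlyBase release 5, a window of 370 kb that holds lab, pb, Dfd, Scr and Antp in this order. All regions of enrichment that overlap this window were kept. They numbered 14 of 5434 in replicate 1, 19 of 4523 in replicate 2 and 26 of 8051 in the list that the authors made from the replicates together (the set list). The study mapped H3K36me1 by chromatin immunoprecipitation and sequencing in whole Drosophila melanogaster embryos aged 14 to 16 hours of the wild-type strain Oregon-R (Oregon-R-modENCODE). It comprises 2 samples precipitated with an antibody against H3K36me1 and 2 Input samples, which were chromatin sequenced as the background of the enriched regions. Each replicate was called over its own Input, and no separate Input values were used here. All samples share genotype and stage. Whole embryos were used, so fewer cells with the mark and less of the mark per cell cannot be told apart. The labels do not tie the replicates to separate collections of embryos, so their spread may be technical. With 2 replicates and a single condition no exact test could pass 0.05, so values are given without p-values.

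Hox genes encode homeodomain transcription factors that give each body segment its identity, and they lie along the chromosome in the order in which they act along the body. Methylation of H3K36 is laid down by several enzymes in flies, among them Ash1, which acts at Hox genes and opposes silencing by Polycomb proteins, and Set2, which acts along transcribed genes. Labial, the product of lab, acts in the intercalary segment of the head and in the midgut. Proboscipedia, from pb, directs formation of the adult mouthparts. Deformed, from Dfd, sets the mandibular and maxillary segments. Sex combs reduced, from Scr, sets the labial segment and the prothorax, and Antennapedia, from Antp, sets the mesothorax and its legs.

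A RefSeq gene table of a later release (release 6) lists the 5 Hox genes in the same order. Between pb and Dfd it has zen2, then zen, which acts in the dorsal embryo, then bcd, which encodes the maternal anterior determinant Bicoid, and Ama, which encodes the cell-adhesion protein Amalgam. The segmentation gene ftz lies between Scr and Antp. A count of 8 other protein-coding genes separates lab from pb, whereas no other protein-coding gene separates Dfd from Scr and 1 lies between ftz and Antp. Because that table is of another build than the regions, no region was assigned to a gene, and positions are given as distances along the window. The window was split at its midpoint into an Antp end and a lab end of 185 kb each. These are stretches of chromosome named for the outermost genes and not the genes themselves.

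H3K36me1 covered a large part of the complex and was concentrated at its Antp end. Enriched regions held 43.1% of the bases of the window in replicate 1 and 43.5% in replicate 2, a mean of 43.3% ± 0.284 (SD, n = 2). The 5 large chromosome arms, which are the X and both arms of chromosomes 2 and 3, were covered to 19.1% in replicate 1 and 16.4% in replicate 2. In the set list the window was covered to 53.3%, against 26.2% of the arms. The share of the window differed less between the replicates than the share of the arms did, which averaged 17.8% ± 1.90 (SD, n = 2). These close totals joined opposite shifts, as replicate 1 was higher in the Antp end and replicate 2 in the lab end. Bases common to both replicates made up 39.2% of the window, and bases in either 47.3%.

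Enriched regions took up 73.6% of the Antp end in replicate 1 and 71.5% in replicate 2, against 12.5% and 15.4% of the lab end. The difference averaged 58.6 percentage points ± 3.56 (SD, n = 2), and it was 61.9 points in the set list, where the Antp end was covered to 84.2% and the lab end to 22.3%. Both replicates therefore gave the same direction, by a difference many times their spread. Coverage rose over 4 equal parts of the window, but not as a smooth gradient. It came in separate domains with gaps between them, described below. In 4 equal parts from the lab side to the Antp side, coverage was 3.73%, 21.3%, 47.2% and 100.0% in replicate 1. It was 3.43%, 27.5%, 43.2% and 99.8% in replicate 2, and 11.3%, 33.4%, 68.5% and 100.0% in the set list. The order of the 4 parts was the same in each list.

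**Figure D1:**
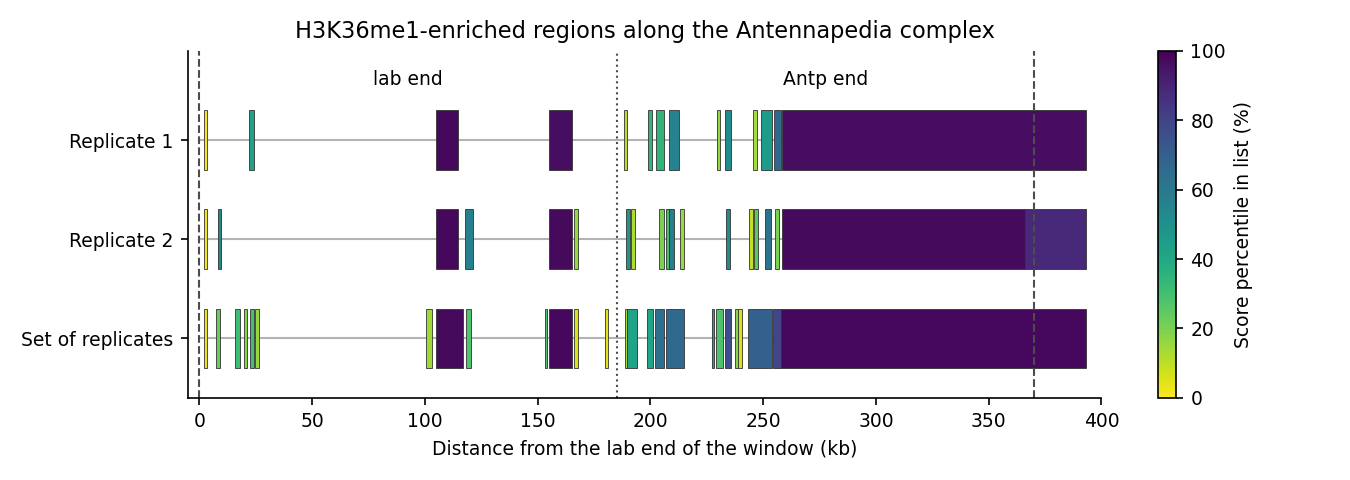
Enriched regions of replicate 1, replicate 2 and the set list are drawn to scale by distance from the lab end of the window (x axis, kb) and coloured by the percentile of their score within their own list. Dashed lines mark the window and the dotted line its midpoint. In replicate 1 a block of 134.9 kb starts 258.2 kb into the window and runs past its end. The lab end holds 2 blocks of about 10 kb there, at score percentiles close to that of the long block.

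The Antp end was dominated by a single broad domain. In replicate 1 it ran on 3R from 2738177 to 2873115, a length of 134.9 kb of which 23.1 kb lay beyond the window. In replicate 2 the same stretch was called as a pair of regions, from 2738278 to 2846024 (107.7 kb) and from 2846198 to 2873055 (26.9 kb). The set list had 1 region from 2738079 to 2873223. The start differed by 101 bp between the replicates and the far end of the stretch by 60 bp, so the replicates differed in one short break and hardly in the outer edges. The longest region ranked 3 by length in each of the 3 lists. It held 70.2% of the covered bases of the window in replicate 1, 67.0% in replicate 2 and 56.8% in the set list.

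The remainder of the Antp end was also covered to a higher share than the lab end, by a smaller margin. In the 73.2 kb between the midpoint and the domain in replicate 1, 33.3% of bases were enriched, against 12.5% of the lab end. In replicate 2 the shares were 28.3% in the 73.3 kb before the domain and 15.4% in the lab end. The margin depended on the list. It was smaller for bases common to both replicates, at 16.9% against 11.4%, and larger in the set list, at 60.1% against 22.3%. Outside the longest region, 18.4% of the window was enriched in replicate 1 and 20.3% in replicate 2, against 19.1% and 16.4% of the arms. The share in replicate 2 includes 3803 bp of the piece of the broad domain that was called separately there. The arm shares keep all regions of the arms, the longest included, so the measures are not alike. In the set list the share outside the longest region was 33.0%, against 26.2% of the arms. That list joined several short regions just before the domain into 1 of 10.8 kb, from 2723301 to 2734082, which overlapped 2 regions of replicate 1 and 3 of replicate 2 and had a score at percentile 69.7.

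In the lab end, most of the enriched sequence lay in 2 compact domains whose positions were nearly the same in both replicates. The one 105 kb into the window ran from 2585042 to 2594752 in replicate 1 (9711 bp) and from 2585042 to 2594874 in replicate 2 (9833 bp). Its starts were identical and its ends differed by 122 bp. The set list had it longer, from 2584987 to 2596809. The other, about 155 kb into the window, ran from 2635261 to 2645280 in replicate 1 (10020 bp), from 2634925 to 2645309 in replicate 2 (10385 bp) and from 2635190 to 2645281 in the set list. Its starts differed by 336 bp and its ends by 29 bp between the replicates. Among 859 pairs of overlapping regions on the arms, with a length of 5 kb or more in replicate 1 and counted where each covered at least 50% of the other, the median differences were 292 bp at the start and 317 bp at the end. Over all 9 such pairs of the complex, short regions included, the medians were 336 bp and 365 bp, against 245 bp and 240 bp over the 2938 pairs of any length on the arms.

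The lab end also held the largest gaps within the window. In replicate 1 no region lay from 2504194 to 2585041, a gap of 80.8 kb that ranked 321 among 5274 gaps between regions of the arms. In replicate 2 the gap ran from 2489692 to 2585041, 95.4 kb, and ranked 273 of 4384. In the set list it ran from 2506345 to 2580616, 74.3 kb, and ranked 266 of 7757. The median gap on the arms was 4044 bp in replicate 1, 4960 bp in replicate 2 and 2720 bp in the set list. The next gap lay between the compact domains, with 40.5 kb in replicate 1, 33.8 kb in replicate 2 and 32.4 kb in the set list. Gaps in the Antp end reached at most 16.7 kb in replicate 1 and 18.5 kb in replicate 2, apart from the gaps of 23.1 kb and 21.1 kb that span the midpoint.

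**Figure D2:**
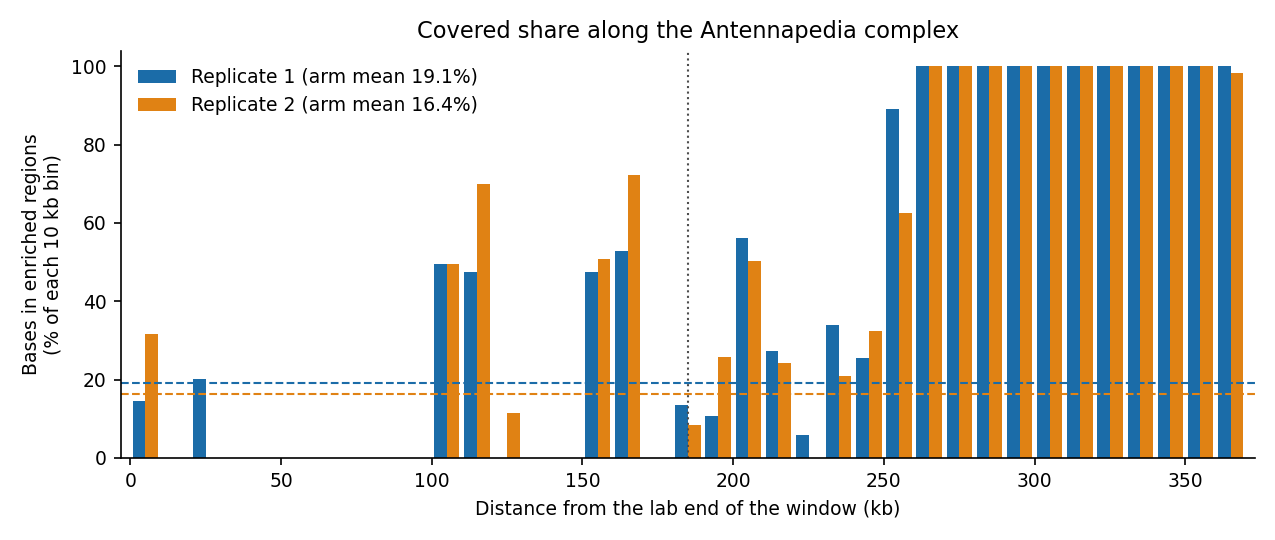
The share of bases in enriched regions (y axis, %) is plotted for each of 37 bins of 10 kb by distance from the lab end of the window (x axis, kb), with 1 bar for each replicate. Dashed lines give the mean share of the 5 large arms, 19.1% in replicate 1 and 16.4% in replicate 2, and the dotted line the midpoint; bins beyond 260 kb are covered to between 98.3% and 100.0%.

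Counted in 37 bins of 10 kb, 14 bins of the complex were covered to at least 50% in replicate 1, against 16% of the 11901 bins of the arms. In replicate 2 there were 16 such bins, against 13.8% of the bins of the arms, and in the set list 20, against 23.2%. These make up 37.8%, 43.2% and 54.1% of the bins of the complex. The Antp end held 13, 13 and 16 of them in its 18 bins, and the lab end 1, 3 and 4 in its own 18 bins. Bins enriched over their full length numbered 11 in replicate 1, against 3.86% of the bins of the arms, 10 in replicate 2, against 3.39%, and 11 in the set list, against 5.76%. Each of them lay in the Antp end. Bins without any enriched base were a smaller share of the complex than of the arms, with 32.4%, 35.1% and 24.3% of its bins. Replicate 1 had 12, against 58.6% of the bins of the arms, replicate 2 had 13, against 63.6%, and the set list had 9, against 47.5%. The Antp end held 0, 1 and 0 of them, and the lab end 12, 12 and 9. A run of 7 neighbouring bins, from 30 to 100 kb into the window, was empty in every list.

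In both replicates the broad domains of the complex scored above its short regions. In the set list the 3 domains did so too, but its regions of 10.8 kb and 8.02 kb, at percentiles of 69.7 and 66.3, scored below a region of 3.76 kb at percentile 79.3. The score is the authors' own value for each region. No scale for it was found in the labels or headers, so each was ranked within its list, and its percentile is the share of regions in that list with the same or a lower score. The compact domain 105 kb into the window scored 1.42 in replicate 1, rank 120 of 5434 and percentile 97.8, and 1.49 in replicate 2, rank 102 of 4523 and percentile 97.8. The domain about 155 kb into the window scored 1.33 in replicate 1 (rank 172, percentile 96.9) and 1.46 in replicate 2 (rank 120, percentile 97.4). The Antp-end domain scored 1.33 in replicate 1 (rank 174, percentile 96.8) and 1.46 in replicate 2 (rank 121, percentile 97.3). The compact domains thus ranked about as high as the Antp-end domain although they were far shorter. In the set list the 3 domains reached percentiles of 97.3, 97.9 and 98.0 in the order from lab to Antp. The piece of the Antp-end domain that replicate 2 called separately scored 1.07, at percentile 88.9.

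Broad regions score higher throughout these lists. On the arms, regions of at least 5 kb had a median percentile of 88.6 in replicate 1 and 87.7 in replicate 2. The compact domains were therefore also set beside regions of the arms whose length was within 25% of their own. The compact domain 105 kb into the window scored as high as or higher than 91.8% of 364 such regions in replicate 1 and 92.1% of 292 in replicate 2. The domain about 155 kb into the window did so for 88.2% of 355 and 90.2% of 286. Only 4 regions in replicate 1 and 3 in replicate 2, itself included, were of like length to the Antp-end domain, too few for such a comparison. The separate 26.9 kb piece in replicate 2 stood lower, at or above 17.5% of 80 regions of like length.

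Regions under 5 kb, a limit chosen after the values were seen, had medians of score percentile below those of short regions on the arms. There were 11 in replicate 1, with percentiles from 1.31 to 66.4 and a median of 34.8, against a median of 40.8 for regions under 5 kb on the arms. There were 15 in replicate 2, with percentiles from 1.88 to 61.9 and a median of 25.4, against 40.1 on the arms. The set list had 21, with percentiles from 3.01 to 79.3 and a median of 27.4, against 42.1 on the arms. These medians were not matched for length. Each short region was also set beside regions of the arms within 25% of its length. It scored at or above 4.34% to 71.4% of them in replicate 1. The ranges were 4.12% to 91.0% in replicate 2 and 4.92% to 79.8% in the set list. Of the short regions, 9 lay in the Antp end and 2 in the lab end in replicate 1, and 11 and 4 in replicate 2, whereas the set list had 10 in the Antp end and 11 in the lab end. They held 24.4 kb of the Antp end and 3.45 kb of the lab end in replicate 1, 20.7 kb and 8.36 kb in replicate 2, and 25.1 kb and 19.4 kb in the set list. The outermost lab-end region, 1.9 kb into the window, was found in every list and had the lowest score of the complex in each, at percentiles of 1.31, 1.88 and 3.01.

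**Figure D3:**
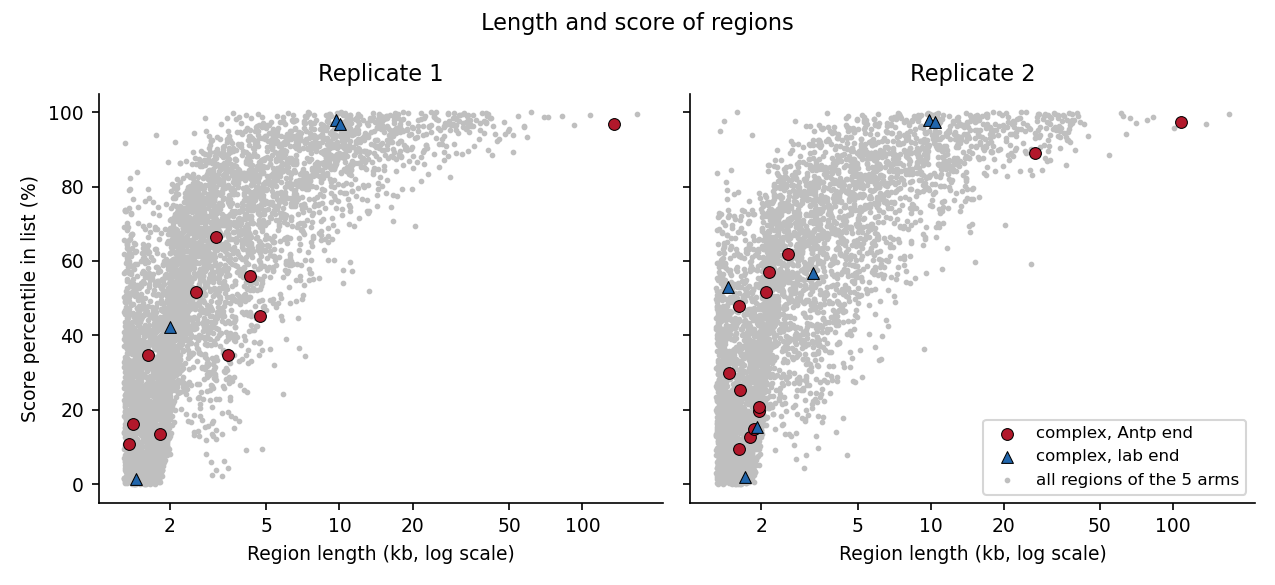
Each point is a region, by length (x axis, kb, log scale) and percentile of score within its list (y axis, %), for replicate 1 (left) and replicate 2 (right). Regions of the complex are coloured by end and all regions of the 5 large arms are grey; the long regions of the complex sit at percentiles of 88.9 to 97.8, and its regions under 5 kb reach at most 66.4.

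The replicates shared 145.1 kb of the window, or 91.0% of the enriched bases of replicate 1 and 90.2% of those of replicate 2. Divided by the bases in at least one replicate, this gives a Jaccard index of 0.829, against 0.703 over the arms. Of 11692 windows of the same length with any enriched base, 1157 (9.90%) reached this index. Agreement was uneven along the complex. The index was 0.857 in the Antp end and 0.692 in the lab end, and it was 0.379 in the stretch of the Antp end before the broad domain, where the regions were short. A partner in replicate 2, sharing 1 bp or more, was found for 11 of the 14 regions of replicate 1, and 13 of the 19 regions of replicate 2 had one in replicate 1. The 3 regions without a partner in replicate 1 were 1416 to 2004 bp long, and the 6 in replicate 2 were 1456 to 3274 bp long. Each of these 9 overlapped a region of the set list. The set list added 9 regions that neither replicate had, 1001 to 2491 bp long and at percentiles of 4.42 to 43.7. Of these, 3 lay in the Antp end and 6 in the lab end, 3 of them between 16.0 and 26.3 kb into the window. The share of such added regions in the whole set list is not given here. Their number in the complex can therefore not be called high or low.

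Set against all windows of its length on the arms, taken every 10 kb, the complex was among the more covered and the more lopsided. Of 11721 windows, 429 (3.66%) were covered as much in replicate 1, 295 (2.52%) in replicate 2 and 448 (3.82%) in the set list. These windows include 74 that overlap the complex itself, and without them 3.43% were covered as much in replicate 1 and 2.29% in replicate 2. Medians over all windows were 17.4% in replicate 1 and 14.6% in replicate 2. On 3R alone, windows covered as much made up 5.88% of 2754 windows in replicate 1 and 4.83% in replicate 2. A difference between the ends as large as in the complex, in either direction, was found in 85 windows (0.725%) in replicate 1, 123 (1.05%) in replicate 2 and 86 (0.734%) in the set list. On 3R alone the shares were 1.38% in replicate 1, 2.03% in replicate 2 and 0.726% in the set list. The median difference, leaving aside its sign, was 11.6 points in replicate 1 and 10.3 points in replicate 2. The coverage of a window limits how large its difference can be. Most windows had too little coverage to reach the difference of the complex. The small shares therefore partly restate high coverage, and windows of like coverage were not compared. Windows overlap their neighbours and share regions, so these shares describe the lists and are not tests.

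**Figure D4:**
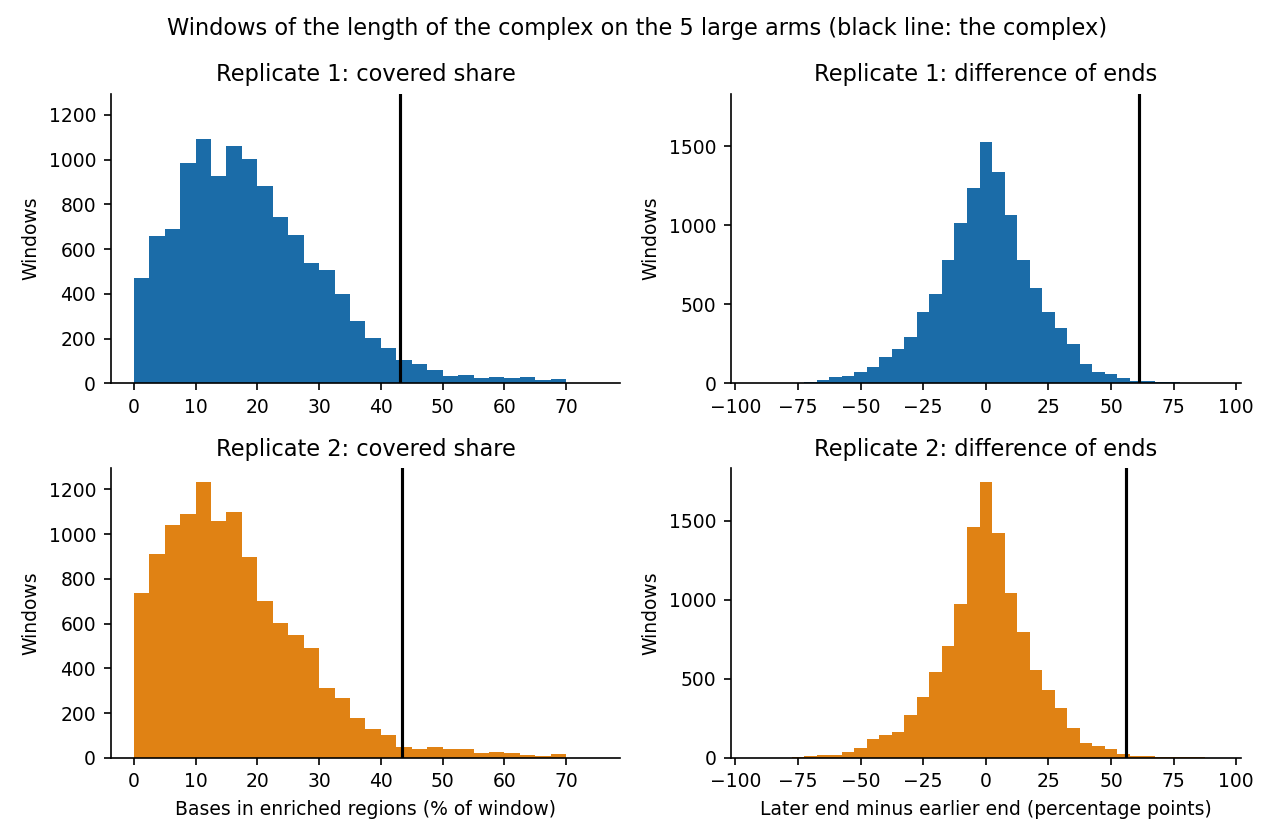
Histograms count windows of 370 kb on the 5 large arms (y axis) by the share of bases in enriched regions (left, %) and by the difference between the later and the earlier end of the window (right, percentage points), for replicate 1 (top) and replicate 2 (bottom). The black line marks the complex, at 43.1% and 43.5% on the left and at 61.1 and 56.1 points on the right.

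The most covered windows elsewhere exceeded the complex in both replicates. The first in both replicates lay on 3R from 12380001 to 12750001. That window takes in much of the bithorax complex, the Hox cluster of the posterior thorax and abdomen. This placement is background knowledge, as no gene table of this build was used. Enriched bases made up 70.3% of that window in replicate 1 and 69.4% in replicate 2, whereas they made up 43.1% and 43.5% of the Antennapedia complex. Its longest region was 92.3 kb and 101.0 kb long, shorter than the 134.9 kb and 107.7 kb of the Antp-end domain. The median percentile of score over the regions of that window was 86.6 and 85.9, while over the regions of the Antennapedia complex it was 43.7 and 48.0. The windows that followed were covered almost as much. They lay on 3L from 450001 to 820001, covered to 69.6% and 69.1%, and on 3L from 11190001 to 11560001, covered to 69.5% and 68.2%. In the set list these windows on 3L came first, at 81.0% and 78.4%. A window on 3R from 590001 to 960001 was next, at 74.8%. The bithorax window, there from 12370001 to 12740001, came at place 4, at 74.5%. The Antennapedia complex was covered to 53.3% in that list. These windows were picked for their coverage, so the differences from them are a description.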

How the data were processed

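The submitters' processing notes name Bowtie 0.12.7, a read aligner. The deposited lists give regions of significant enrichment with a score per region, on FlyBase release 5 per the file headers. The labels and headers state neither the scale of the deposited score nor the region caller, its threshold or how replicates were joined for the set list. Depth is unknown, so no counting interval is given. Scores were ranked within a list only. Positions count from 1 with both ends included. Covered shares, gaps, edges, 10 kb bins and windows of the length of the complex were computed with Python 3.11.15, NumPy 2.4.6, pandas 2.3.3 and matplotlib 3.10.9. The code for covered shares, windows and joined regions returned exact answers on 20 of 20 simulated lists. Gaps, edges, overlap of the replicates and ranks were not part of these simulations. The genes named were the 5 Hox genes and the 5 other known genes of the complex. The regions named were those of 10 kb or longer in any list and the longest gaps. The outermost lab-end region and the set-list regions of 8.02 kb and 3.76 kb were picked after their values were seen. Members, lists and window were chosen with earlier results of these data known. Alternatives were single replicates, the 50% of regions with the highest scores, joining regions across gaps under 1000 bp, common or combined regions, the set list, and other splits, bins and windows.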

Additional observations from a re-analysis of the deposited data

How the results depend on the processing

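The Antp end was covered more than the lab end in each of the 8 alternatives run for it. All 8 draw on the same replicates and keep the Antp-end domain. They could therefore hardly have reversed the direction and are not separate support for it. The other values have no direction that could reverse. Values below are means of the replicates unless stated. Covered share of the complex, 43.3% in the report, was 38.5% with the higher-scoring 50%, 43.9% with regions under 1000 bp apart merged, 39.2% for bases common to both replicates, 47.3% for bases in either and 53.3% in the set list. The difference between the ends was 52.8 points with the higher-scoring 50% and 84.2 points for the last against the first of 3 equal parts. The longest region grew to 140832 bp with merging. The median score percentile, 45.8, was 29.1 in the set list and 41.3 for regions lying at least 50% inside the window. The share of windows covered as much, 3.09%, was 5.36% on 3R alone. The Jaccard index, 0.829, was 0.907 with the higher-scoring 50%, 0.817 with merging and 0.791 when only reciprocal pairs counted as shared. With 5 kb bins 31.5 were covered to at least 50%, which is 15.8 per 10 kb (a scaling added after the data were examined) against 15. The causes were not tested. With either replicate left out, the covered share was 43.1% to 43.5%, the difference 56.1 to 61.1 points, the share of windows 2.52% to 3.66%, the longest region 107747 to 134939 bp, the bins 14 to 16 and the median percentile 43.7 to 48.0. No paired analysis was possible because no separate values exist here for the Input side of each pair. The part that sequencing depth plays in the short regions was not tested, as depth is unknown.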

Other observations

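In the 100 kb on the Antp side, 51.3% of bases were enriched in replicate 1, 47.1% in replicate 2 and 58.6% in the set list, of which the Antp-end domain running past the window made up 23.1 kb in each replicate and 23.2 kb in the set list. The 100 kb on the lab side held no region in any list. Over flanks as long as the window the shares were closer, with 19.0% on the Antp side and 15.8% on the lab side in replicate 1, 17.8% and 14.8% in replicate 2, and 26.4% and 19.7% in the set list. The nearest region on the lab side ended at 2264950 in replicate 1, 2286635 in replicate 2 and 2290411 in the set list. The gap that it left before the complex was 217.0 kb, 195.3 kb and 191.5 kb, and it ranked 46 of 5274, 77 of 4384 and 50 of 7757 among the gaps of the arms. On the Antp side the next region began at 2873423 in replicate 1 and 2874073 in replicate 2, close to where the broad domain ended at 2873115 and 2873055. That next region was short, 2.73 kb and 2.12 kb, with score percentiles of 57.6 and 33.5. These flanks were looked at after the values of the complex were seen.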
